A study of Homo sapiens with 6 samples.

Results

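The genes described here are the 10 high mobility group genes HMGB1, HMGB2, HMGB3, HMGA1, HMGA2, HMGN1, HMGN2, HMGN3, HMGN4 and HMGN5, taken by annotated gene symbol from an expression array that measured 19090 named genes. All 10 were measured, through 14 of the array's 28264 probes: HMGB2, HMGB3, HMGA2 and HMGN3 had 2 probes each and the other 6 genes had 1. The family was brought in because HMGB1 had one of the smallest p-values in the comparison of the study's groups, so the members were selected on a measured value, the HMGB1 difference, and that difference is given as a description with no test. The other members were added by family name, without HMGB4, which is counted below among the other HMG-box proteins.

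The study used single-colour Cy3 arrays of cells labelled Hep3B, an established human hepatocellular carcinoma line grown in DMEM with fetal serum. The 3 arrays of one group carried RNA of cells transfected with a vector, named GFP in the sample titles, and the 3 of the other RNA of cells transfected with CCN5, a secreted matricellular protein also known as WISP2. Untransfected cells were not analysed here, and neither the form nor the duration of transfection is given in the labels. Nothing in the labels says that replicates were separate cultures, so the p-values reflect array-to-array spread only, part or all of which may be technical.

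High mobility group proteins are small, abundant chromatin proteins that fall into the unrelated HMGB, HMGA and HMGN groups. HMGB proteins bend DNA through HMG-box domains and end in an acidic tail. HMGA proteins bind AT-rich DNA through short AT-hook motifs, and HMGN proteins bind nucleosomes directly and compete with linker histone H1. Outside the cell HMGB1 also acts as a danger signal that immune receptors recognise, and HMGA1 and HMGA2 are oncofetal proteins, made in embryos and in many tumours.

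Promoter sequences are shown for HMGB1, for HMGA1 and HMGB3, which by their brightest probes had the next largest higher values, and for HMGN3 and HMGN4, the members with a probe on which all arrays labelled CCN5 were lower, so that the sequence next to their transcription starts can be set beside their values. They are the 250 bases before an annotated start, from RefSeq on GRCh38.p14, read 5′ to 3′ on the gene's strand. Capitals mark CCAAT or its reverse complement ATTGG, the core of the box that the factor NF-Y binds. HMGB1 on chromosome 13 has several annotated starts, and the array does not tell which were in use. The windows of 2 of its 3 starts are followed by 1 window each of HMGB3, HMGA1, HMGN3 and HMGN4; HMGB3 and HMGA1 have a second window, described but not shown.
HMGB1, chr13:30465937-30466186, minus strand: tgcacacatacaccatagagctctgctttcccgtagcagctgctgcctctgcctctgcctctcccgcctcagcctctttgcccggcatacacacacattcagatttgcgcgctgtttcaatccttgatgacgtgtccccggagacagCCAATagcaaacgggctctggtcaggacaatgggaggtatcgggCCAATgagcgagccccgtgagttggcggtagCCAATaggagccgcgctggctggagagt
HMGB1, chr13:30617598-30617847, minus strand: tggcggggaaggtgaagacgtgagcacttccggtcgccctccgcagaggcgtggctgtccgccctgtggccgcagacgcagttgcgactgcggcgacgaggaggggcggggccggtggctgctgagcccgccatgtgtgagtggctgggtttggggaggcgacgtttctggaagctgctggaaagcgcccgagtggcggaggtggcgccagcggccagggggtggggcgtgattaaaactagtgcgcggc
HMGB3, chrX:150983085-150983334, plus strand: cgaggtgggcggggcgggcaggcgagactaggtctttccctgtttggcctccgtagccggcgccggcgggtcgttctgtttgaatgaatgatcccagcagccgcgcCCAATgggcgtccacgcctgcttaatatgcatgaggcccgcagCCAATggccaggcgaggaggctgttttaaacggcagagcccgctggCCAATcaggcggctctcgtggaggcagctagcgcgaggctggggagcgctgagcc
HMGA1, chr6:34236623-34236872, plus strand: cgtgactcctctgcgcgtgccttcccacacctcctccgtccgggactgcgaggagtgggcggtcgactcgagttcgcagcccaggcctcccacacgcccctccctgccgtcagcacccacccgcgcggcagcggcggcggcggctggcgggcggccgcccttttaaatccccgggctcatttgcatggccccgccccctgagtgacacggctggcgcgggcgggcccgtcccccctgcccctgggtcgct
HMGN3, chr6:79234683-79234932, minus strand: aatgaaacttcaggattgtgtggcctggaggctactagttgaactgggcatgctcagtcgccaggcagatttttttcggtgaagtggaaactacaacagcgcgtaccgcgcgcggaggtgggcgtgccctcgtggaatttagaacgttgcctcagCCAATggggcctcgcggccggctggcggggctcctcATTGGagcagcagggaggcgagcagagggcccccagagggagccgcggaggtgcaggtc
HMGN4, chr6:26538116-26538365, plus strand: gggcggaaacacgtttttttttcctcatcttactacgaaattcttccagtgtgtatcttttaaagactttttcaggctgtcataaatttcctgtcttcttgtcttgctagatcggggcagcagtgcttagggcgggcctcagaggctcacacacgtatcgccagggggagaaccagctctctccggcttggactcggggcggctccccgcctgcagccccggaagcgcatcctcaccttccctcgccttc

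RefSeq windows of this kind were held for 8 of the members, all but HMGB2 and HMGA2, 12 windows in all. CCAAT, on either strand and with overlaps counted, was found in 7 of the 12, against 32.0% of the 35116 windows of all genes. The first HMGB1 window and the HMGB3 window shown held 3 copies each, a number reached by 2.93% of all windows, and the HMGN3 window held 2. The windows not shown held 1 copy for HMGB1, 0 for HMGB3, 1 for HMGA1, 2 for HMGN1, 1 for HMGN2 and 0 for HMGN5. The second HMGB1 window and the HMGA1 and HMGN4 windows shown held 0. The GC box GGGCGG, found in 42.6% of all windows, occurred 0 times in the first HMGB1 window, 2 times in the second, 2 times in that of HMGB3, 5 times in that of HMGA1, 0 times in that of HMGN3 and 3 times in that of HMGN4. In the windows not shown it occurred 9 times for HMGB1, 10 for HMGB3, 0 for HMGA1, 4 for HMGN1, 1 for HMGN2 and 0 for HMGN5. TATAAA was in none of the 12, against 10.7% of all windows. CCAAT copies thus occurred in windows of members read higher and of a member read lower, and these matches are letters in a window only, not binding sites.

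Before the members, the labels were checked. The single CCN5 probe read intensities of 835, 836 and 880 on vector replicates 1 to 3 and 673, 672 and 619 on CCN5 replicates 1 to 3, so the signal of the transfected gene was lower with its own label (log2 difference -0.34, limma adjusted p 0.151, exact two-sided permutation p 0.1, the smallest that 3 against 3 allows). Where that probe lies on the transcript was not determined here, so it may not see the transfected sequence, and every direction below follows the labels alone. Markers also went against the named cell type: 0 of 10 measured hepatocyte markers lay above the 50th percentile of signal, with albumin (ALB) at percentile 12.2 and alpha-fetoprotein (AFP) at 26.7, while all 7 measured squamous epithelial markers did, with KRT5 at 98.4 and TRIM29 at 99.1. Of other cell types, 2 of 5 leukocyte markers lay above it (CD68 and CD14, with PTPRC at 15.1), 2 of 6 fibroblast markers (COL1A1 and LUM, with COL1A2 at 13.7 and DCN at 11.1) and 1 of 4 endothelial markers (VWF at 52.4). A percentile of signal does not compare levels between genes, so these counts describe probe signal only. Summed marker intensity was 1955 to 2317 with the vector label and 1725 to 2350 with the CCN5 label for hepatocyte markers. For squamous markers it was 185672 to 201998 and 194912 to 198577. That sum held opposite directions, as 2 of the 7 markers had a log2 difference above 0 and 5 below. KRT5 stood at 0.40 (SE 0.17), whereas KRT14 stood at -0.62 (SE 0.11) and was lower on all arrays labelled CCN5. The leukocyte sum, 5617 to 6314 against 4063 to 4871, was lower on all arrays labelled CCN5, and its part in the results was not tested. It came mostly from CD68 (mean 4437 against 3326) and CD14 (1383 against 1075). Means as deposited were 63.8 against 69.6 for PTPRC, 59.5 against 52.9 for CD3E and 24.9 against 25.3 for LYZ. After normalization all 5 leukocyte markers had a log2 difference below 0, with a median of -0.38. The values were -0.07 (SE 0.15) for PTPRC, -0.43 (SE 0.20) for CD3E and -0.38 (SE 0.30) for LYZ. Median intensity was 504 to 600 per array, and vector replicate 1 differed from the rest in having 1330 probes below 0 against 0 to 12.

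HMGB1 signal was close to doubled in the arrays labelled CCN5. HMGB1, the most widely expressed HMGB protein, read 383, 379 and 373 on the vector replicates and 788, 659 and 725 on the CCN5 replicates, as deposited. The highest vector array thus lay far below the lowest CCN5 array, and the vector arrays were within a few units of each other (378 ± 4.70 against 724 ± 64.6, SD, n = 3 each). After quantile normalization the log2 values differed by 0.98 (SE 0.10, with a 95% interval from 0.73 to 1.22), or 1.97-fold. The interval does not allow for the choice of HMGB1 by its p-value and is not read as a test. The SD of the vector arrays was then 0.12 on the log2 scale, and vector replicate 1 stood above the other vector replicates. The gene has a single probe, at percentile 49.3 of signal, and RefSeq names 50 pseudogenes of HMGB1. Probe sequences were not used here, so cross-hybridisation with such copies was not tested.

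HMGB2, the HMGB protein typical of proliferating cells, was higher with the CCN5 label by both of its probes, which lay at percentiles 96.7 and 96.6. The brighter probe read 26203, 22254 and 23247 on the vector replicates and 34072, 30599 and 28802 on the CCN5 replicates. Its log2 difference was 0.35 (SE 0.11, limma adjusted p 0.185). The other probe read 26983, 22043 and 23791 against 28073, 31496 and 29889, a log2 difference of 0.27 (SE 0.09, adjusted p 0.206). The labels did not overlap for either probe, although on the second the highest vector array and the lowest CCN5 array were close.

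The probes of HMGB3, an X-linked relative best known from blood stem and progenitor cells, pointed in opposite directions. The brighter, at percentile 60.3, read 889, 871 and 953 on the vector replicates and 999, 1310 and 1251 on the CCN5 replicates, a log2 difference of 0.41 (SE 0.15, limma adjusted p 0.230). CCN5 replicate 1 stood only slightly above the vector arrays there. The dimmer probe, at percentile 17.5, read 48.8, 101 and 101 against 74.6, 79.3 and 70.5, with a difference of -0.27 (SE 0.14, adjusted p 0.343), and its labels overlapped. The low vector value on it came from replicate 1, the array with many values below 0. The size of that difference depended on the scaling, at -0.09 as deposited and -0.04 with median centring, so the opposite directions of the probes rest on a small value. The mean of both probes was 0.07.

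**Figure D1:**
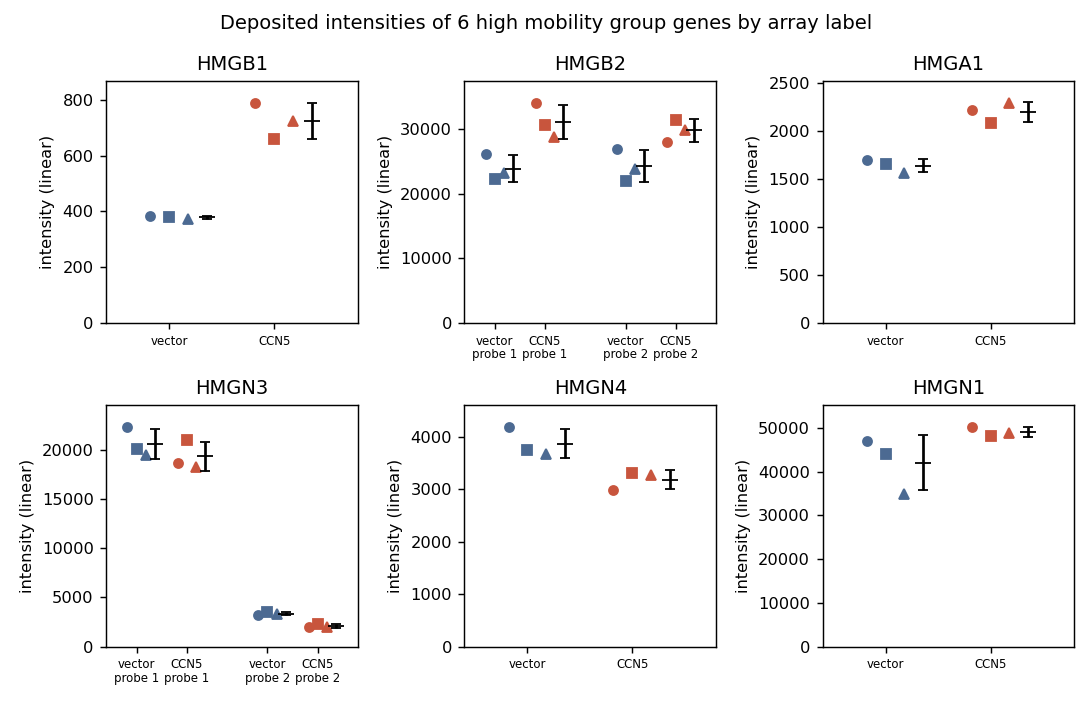
Deposited linear intensities of 6 high mobility group genes, with 1 point per array (circle, square and triangle for replicates 1, 2 and 3; blue for the vector label, red for the CCN5 label) and the mean ± SD of 3 arrays in black; axes start at 0, and probe 1 is the brighter where there are 2. HMGB1 read 373 to 383 with the vector label and 659 to 788 with the CCN5 label, while the dimmer HMGN3 probe read 3251 to 3512 and 1949 to 2312.

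The HMGA genes did not share a direction. HMGA1, which helps assemble transcription factors on enhancers, read 1701, 1659 and 1562 on the vector replicates and 2220, 2087 and 2293 on the CCN5 replicates. All CCN5 arrays lay above all vector arrays, and the difference was 0.44 (SE 0.10, 95% interval 0.21 to 0.67), or 1.36-fold, with a limma adjusted p of 0.131. HMGA2, its oncofetal relative, read 2614, 2526 and 2550 on the vector replicates by the brighter probe and 3005, 2153 and 2189 on the CCN5 replicates. CCN5 replicate 1 was above all vector arrays and the other CCN5 replicates below them, which gave a difference of -0.06 (SE 0.14, 95% interval -0.39 to 0.27, adjusted p 0.831). The second HMGA2 probe read 1719, 1988 and 1924 against 1744, 1552 and 1819 (-0.12, SE 0.11, adjusted p 0.568), again with overlap. The 95% interval of that probe ran from -0.38 to 0.13. The HMGA1 interval overlapped that of the brighter HMGA2 probe but not that of the dimmer one. A difference between the genes was not tested.

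HMGA2 is the textbook target of the let-7 microRNAs, which repress it through sites in its 3′ end. The mature sequences below are those of MIRLET7A3 and MIRLET7B, neighbouring let-7 genes on chromosome 22 at the host gene MIRLET7BHG that the array measures, with the seed, bases 2 to 8, in capitals; all 8 let-7 5p forms in RefSeq share it.
hsa-let-7a-5p: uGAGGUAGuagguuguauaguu
hsa-let-7b-5p: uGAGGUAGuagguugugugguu
The brighter MIRLET7BHG probe read 2204, 2008 and 1907 on the vector replicates and 2060, 1889 and 1832 on the CCN5 replicates, and the labels overlapped. Its log2 difference was -0.06 (SE 0.10, limma adjusted p 0.756), close to that of HMGA2, and a dimmer probe gave -0.24 (SE 0.14, adjusted p 0.422). Mature microRNAs were not measured. The antisense transcript HMGA2-AS1 was at percentile 1.02 of signal.

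Of the HMGN genes, HMGN1 and HMGN2 stood slightly higher and HMGN3 and HMGN4 lower with the CCN5 label. HMGN1, a nucleosome-binding protein encoded on chromosome 21, read 46965, 44048 and 34932 on the vector replicates and 50236, 48082 and 48803 on the CCN5 replicates (0.18, SE 0.13, 95% interval -0.13 to 0.49, limma adjusted p 0.488). The groups did not overlap, but vector replicate 3 was far below the other vector arrays, and without it the difference was 0.06. HMGN2, the most conserved of the group, read 475, 442 and 511 against 621, 483 and 569 (0.28, SE 0.11, adjusted p 0.255). CCN5 replicate 2 overlapped the vector arrays as deposited, and the labels separated only after normalization. RefSeq names 38 pseudogenes of HMGN1 and 48 of HMGN2. The only pseudogene of a member with a probe was HMGN2P46, at 0.06 (SE 0.12) by a probe at percentile 99.7 and -0.15 (SE 0.37) by one at percentile 3.61.

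HMGN3, known also as a partner of the thyroid hormone receptor and made as several splice forms, had the largest lower value of the family, on 1 probe of 2. The dimmer probe, at percentile 75.4, read 3251, 3512 and 3267 on the vector replicates and 1990, 2312 and 1949 on the CCN5 replicates. Every CCN5 array lay well below every vector array, which gave -0.68 on the log2 scale (SE 0.10, 95% interval -0.93 to -0.42, limma adjusted p 0.106), or 1.60-fold more signal with the vector label. The brighter probe, at percentile 95.3, read 22338, 20097 and 19437 against 18660, 21008 and 18272. There the labels overlapped and the difference was -0.14 (SE 0.09, 95% interval -0.37 to 0.09, adjusted p 0.460). The 95% intervals of the probes did not overlap, and which transcripts each probe detects was not determined here.

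HMGN4, encoded by a retrocopy of HMGN2, read 4192, 3748 and 3666 on the vector replicates and 2980, 3308 and 3263 on the CCN5 replicates. No array of one label reached the other, and the difference was -0.27 (SE 0.10, 95% interval -0.51 to -0.03, limma adjusted p 0.223). HMGN5, a longer X-linked member with an acidic tail, read 2480, 2284 and 2312 against 2514, 2257 and 1979, with overlap. Its difference was -0.06 (SE 0.10, 95% interval -0.31 to 0.19, adjusted p 0.783).

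**Figure D2:**
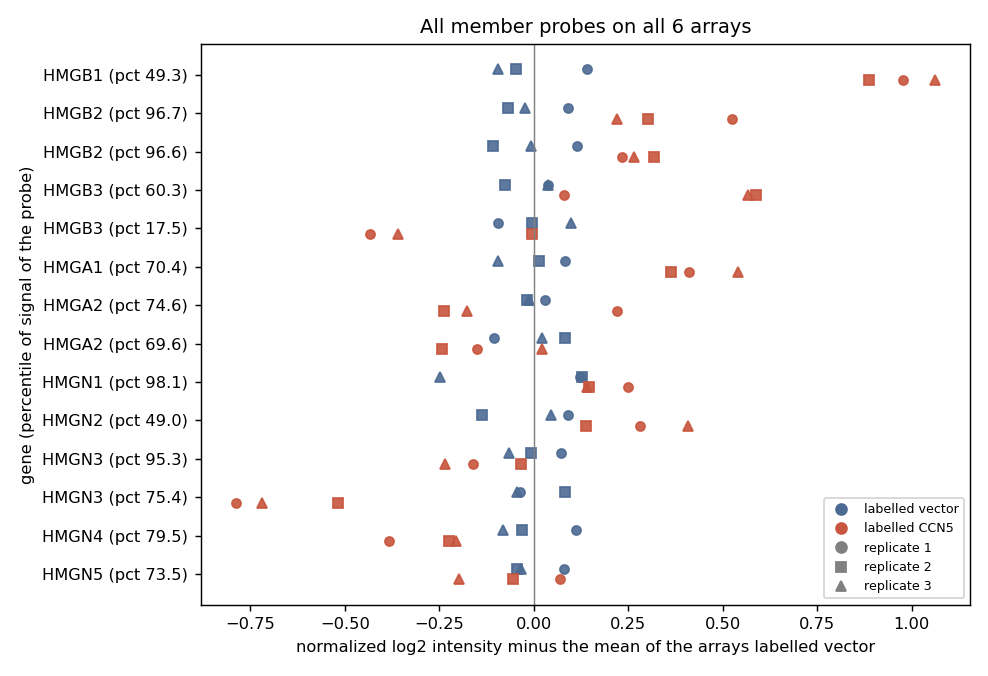
Normalized log2 intensity of all 14 member probes on each array, minus the mean of the 3 arrays labelled vector, with the percentile of signal (pct) after the gene name; colours mark the labels and shapes the replicate. Red points lie to the right of all blue points for 7 probes and to the left for 2 probes, the dimmer HMGN3 probe and HMGN4, and overlap them for 5 probes.

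Across the family, 7 of the 14 probes had a difference above 0 and 7 below. On the normalized scale the labels did not overlap for 7 probes that were higher with the CCN5 label, where 11.8% of all probes did so, and for 2 that were lower, where 14.8% did so. As deposited, the counts were 6 and 2, against 10.4% and 11.5% of all probes. With limma over all 28264 probes at an adjusted p under 0.05, 0 member probes were called in either direction, as were 0% of all probes in each. At an unadjusted p under 0.05, 6 member probes were higher (8.62% of all probes) and 2 lower (10.4%). The median over the 10 genes, by their brightest probes, was 0.23, against -0.01 over all genes. Over the 14 probes it was 0.06, against -0.0047 over all probes. Each count of higher probes includes HMGB1 and both HMGB2 probes, and both family medians include HMGB1. Since HMGB1's value in this comparison chose the family, nothing further is read from these shares and medians. The adjusted p of the 13 other member probes lay between 0.106 and 0.831.

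For the members other than HMGB1, the calls depended on the variance model and on dim probes. When the variance was allowed to follow intensity and made robust, the dimmer HMGN3 probe was the only one of these called (adjusted p 0.0207), where 0.665% of all probes were called higher and 1.19% lower. It alone was also called with log2(value + 50) (adjusted p 0.0396), where 0.283% of all probes were called higher and 0.796% lower, and without the dimmest 25% of probes (0.0452), where 0.156% and 0.712% were. Without the dimmest 50%, HMGA1 (0.0342) and the dimmer HMGN3 probe (0.0161) were called, where 3.06% of the remaining probes were called higher and 4.01% lower. No call is given for HMGB1, whose p-value in this comparison chose the family.

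**Figure D3:**
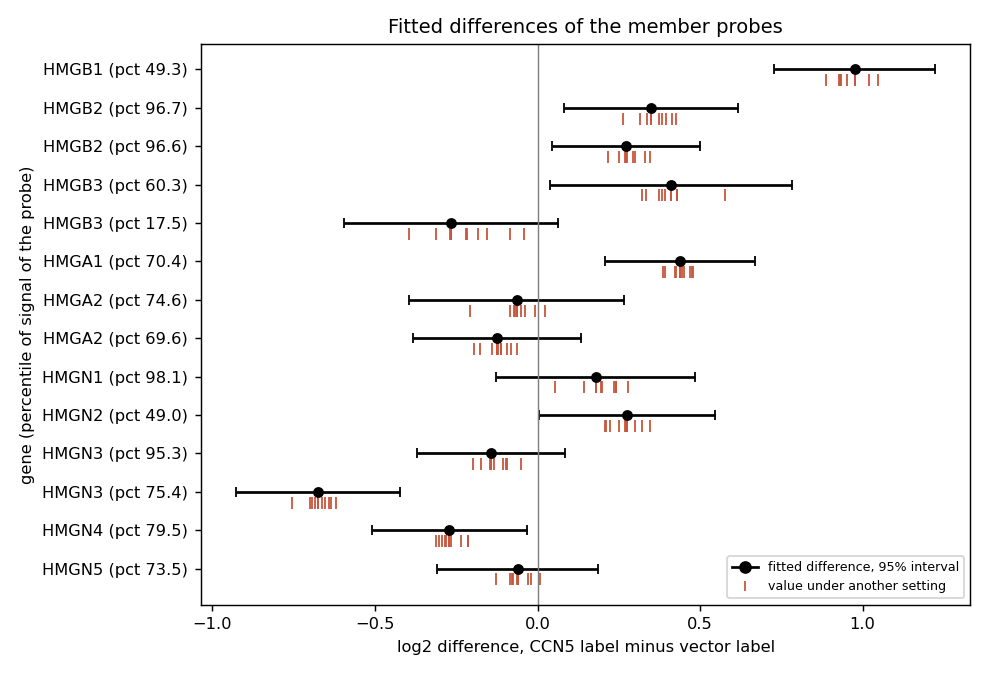
Fitted log2 differences (CCN5 label minus vector label) of the 14 member probes with their 95% intervals in black, and the values under the other settings as red ticks. HMGB1 stayed between 0.89 and 1.05 and the dimmer HMGN3 probe between -0.75 and -0.62, while ticks of HMGA2 and HMGN5 cross 0. The HMGB1 interval does not allow for the choice of that gene by its p-value.

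The pathway around these proteins was described by lists of linked genes, each gene by its brightest probe. With limma over all probes, 0 members of any list passed in either direction, as did 0% of all genes, so the counts below are at an unadjusted p under 0.05, which 8.58% of all genes met upwards and 11.2% downwards. Of 34 measured genes for other HMG-box proteins, 17 were above 0 and 17 below, with a median of -0.0049 (unadjusted, 1 higher and 3 lower). The 3 of smallest p were lower: TOX2 at -0.82 (SE 0.09), SOX4, a developmental transcription factor, at -0.60 (SE 0.11), and TCF7L2, a DNA-binding partner of beta-catenin, at -0.46 (SE 0.12). TOX2 read 3526, 3744 and 3782 on the vector replicates and 2324, 2022 and 1894 on the CCN5 replicates, without overlap. TFAM, which packages mitochondrial DNA, stood at 0.23 (SE 0.12) and SSRP1, a subunit of the FACT histone chaperone, at -0.02 (SE 0.13).

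Linker histones, with which HMGN proteins compete, had 4 of 9 measured genes above 0 and a median of -0.03 (unadjusted, 1 higher and 1 lower). H1-4, at percentile 31.7, read 125, 150 and 137 on the vector replicates and 339, 229 and 179 on the CCN5 replicates. Its log2 difference was 0.84 (SE 0.18). The testis-specific H1-6, at percentile 4.48, stood at -0.50 (SE 0.09) with deposited values that overlapped, and H1-5 at 0.12 (SE 0.14). Most linker histone messages lack a poly(A) tail, and the RNA was primed with oligo(dT).

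Receptors and extracellular partners of HMGB1 had 9 of 15 genes above 0 and a median of 0.01 (unadjusted, 0 higher and 3 lower). AGER, the receptor RAGE, read 3539, 3482 and 3527 against 3828, 3593 and 3390, a difference of 0.04 (SE 0.08). The receptor TLR4, at percentile 26.5 or lower by all 3 probes, stood at 0.37 (SE 0.24) by the brightest and at -0.58 (SE 0.67) and 0.68 (SE 0.38) by the others, and TLR2 was at percentile 4.41. LY96, the TLR4 co-receptor that HMGB1 binds, read 243, 345 and 310 on the vector replicates and 168, 182 and 199 on the CCN5 replicates, a difference of -0.70 (SE 0.17). CD14, which is also one of the leukocyte markers, stood at -0.34 (SE 0.13), and TREM1, a myeloid activating receptor, at -0.46 (SE 0.17) with dimmer probes at -0.05 and 0.07.

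Among 12 genes for acetylation, nuclear export and release of HMGB1, 6 were above 0 and the median was 0.01 (unadjusted, 2 higher and 3 lower). CASP1, the inflammasome protease, stood at -0.34 (SE 0.09), with its other probes at -0.45 and -0.16. The brightest probe of EP300, a histone acetyltransferase, gave -0.63 (SE 0.18), and its dimmer probe gave 0.28 (SE 0.09), the opposite direction. BECN1, an autophagy protein that cytosolic HMGB1 binds, read 10387, 10024 and 9476 against 13926, 11332 and 14900 (0.40, SE 0.13). XPO1, the exportin that carries HMGB1 out of the nucleus, was at 0.38 (SE 0.13).

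Regulators and targets in the HMGA2 and let-7 axis had 9 of 14 genes above 0 and a median of 0.10 (unadjusted, 2 higher and 1 lower). DROSHA, the nuclease that starts microRNA processing, stood at 0.44 (SE 0.13), TUT4, which marks let-7 precursors for decay, at -0.33 (SE 0.13), and IGF2BP1 at 0.28 (SE 0.11). IGF2BP2, a direct target of HMGA2, read 26900, 30367 and 30618 against 30546, 31936 and 32361, a difference of 0.08 (SE 0.10). LIN28A and LIN28B, which block let-7 maturation, lay at or below percentile 23.9.

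The list for the SET complex, a group that includes HMGB2, also took in ANP32B and ANP32E, relatives of its member ANP32A. It had 6 of 7 genes above 0 and a median of 0.25 (unadjusted, 4 higher and 0 lower). ANP32B, an acidic histone chaperone, read 81149, 71373 and 76917 on the vector replicates and 107334, 99743 and 125675 on the CCN5 replicates, without overlap (0.46, SE 0.10). ANP32A was at 0.47 (SE 0.16) and ANP32E at 0.25 (SE 0.10), whereas SET was at 0.08 (SE 0.11). ANP32B and ANP32E were among the 4 counted higher, and the value of ANP32E is the list median. Of 15 proliferation genes, with which HMGB2 is commonly expressed, 13 were above 0 with a median of 0.23 (unadjusted, 7 higher and 0 lower). Their upward lean in these arrays was known when the list was drawn up. CCNA2, the S and G2 phase cyclin, was at 0.52 (SE 0.13) with a second probe at 0.55. PLK1, a kinase of mitosis, was at 0.44 (SE 0.09) and TPX2, a spindle factor, at 0.33 (SE 0.09). The HMGB2 probes stood at 0.35 and 0.27, and a link with these genes was not tested.

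**Figure D4:**
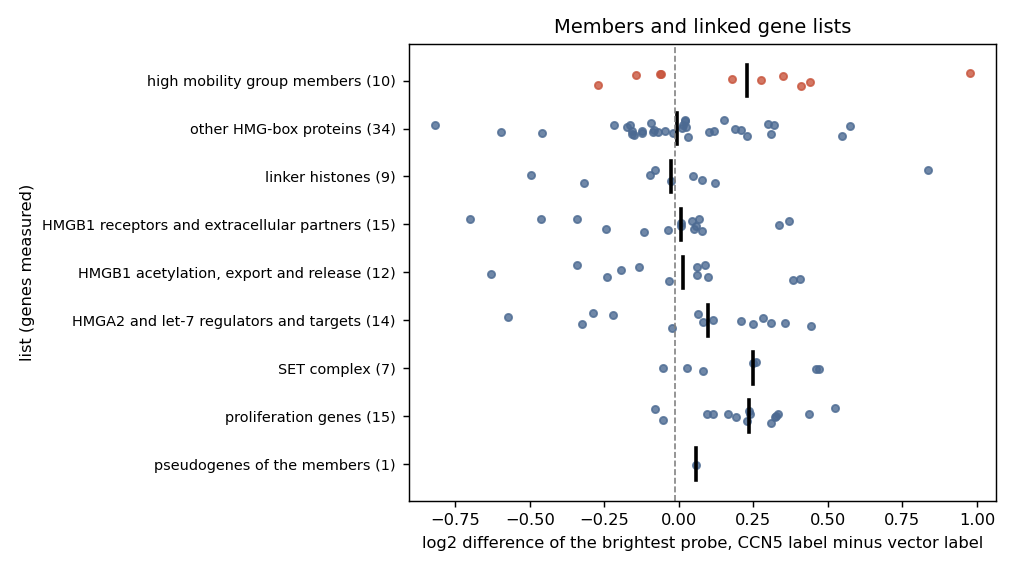
Log2 differences (CCN5 label minus vector label) of the brightest probe of each member and of each linked gene, with 1 point per gene, black bars for list medians and a dashed line for the median of all genes (-0.01). Medians are 0.25 for the SET complex list, 0.23 for the proliferation genes and 0.23 for the family. The family median includes HMGB1, whose p-value chose the family. The upward lean of the proliferation genes was known when they were listed. Medians of the HMG-box proteins, linker histones, receptors and release genes lie between -0.03 and 0.01.

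The genes whose pattern over the 6 arrays was most like that of HMGB1 were sought among 10560 genes in the brighter 50% of signal. The highest Pearson correlations were those of CDCA3 (r = 0.998), ZSCAN31 (0.998), the importin KPNB1 (0.995), RPN1 (0.995) and citrate synthase, CS (0.994). Their log2 differences were 0.58, 0.36, 0.43, 0.15 and 0.37, all smaller than that of HMGB1. The most opposite patterns were those of COL7A1 (-0.999), ETV5 (-0.999), H2AC18 (-0.999), FOXA1 (-0.998) and QPRT (-0.997), whose differences were -0.80, -0.82, -0.51, -0.27 and -1.16. These values rest on 6 arrays in 2 labelled groups and mostly restate the difference between the labels.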

How the data were processed

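The authors deposited 1 linear intensity per probe and array, in a table of the whole series. Per the labels' protocols, complementary DNA was primed on total RNA by T7 oligo(dT) and antisense RNA was made and dye-labelled, which favours the 3′ part of polyadenylated transcripts. For scanner, background correction, normalization and detection flags nothing is given in the sources used here. Brightness is therefore stated as a percentile of mean normalized signal over all probes, which does not compare levels between genes. Intensities under 1 were set to 1 (5.35% of probes on vector replicate 1, under 0.1% on others), log2-transformed and quantile normalized.

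All 28264 probes were fitted with limma 3.58.1 in R 4.3.3 (lmFit, eBayes, two-sided), arrays labelled CCN5 minus vector, and p-values were adjusted by Benjamini-Hochberg over the whole table (threshold 0.05). Tested on simulated arrays, it recovered 78 of 100 changes of 1 and 99 of 100 changes of 2 on the log2 scale, placed in the brighter 50% of probes, with 11 false calls. The simulated noise was independent between probes, so these rates need not hold for the real arrays. The probes of HMGB1 and HMGN2 and the dimmer HMGB3 probe lay outside that brighter 50%. Platform annotation, updated through entrez identifiers, named 25893 probes with 1 gene, 0 with several and 2371 with none. Motif windows were searched in Python 3.11.15 and figures drawn with matplotlib 3.10.9. Members and lists were chosen with earlier results of these data known. The text names all members, up to 3 genes of smallest p per list, the 5 genes most and least like HMGB1, and, outside that rule and chosen after their values were seen, TFAM, SSRP1, AGER, TLR4, TLR2, XPO1, IGF2BP2, LIN28A, LIN28B, SET, HMGA2-AS1 and MIRLET7BHG. The alternatives tried were other scalings, filters on dim probes, another variance model, the replicate block, the mean of a gene's probes and leaving out each array.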

Additional observations from a re-analysis of the deposited data

How the results depend on the processing

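The number of arrays and the unknown detection level limit these results, most of all for dim probes such as the second HMGB3 probe. HMGB1 stayed higher in every setting that kept it; it was absent without the dimmest 50% of probes. Its difference, which chose the family and gets no test, was 0.89 with log2(value + 50) and 0.93 to 1.05 without 1 array. Dropping the dimmest 25% of probes, the trended, robust variance and the replicate block use the same normalized values. They leave the fitted difference at 0.98 by construction, so they do not check it. Of the members other than HMGB1, the dimmer HMGN3 probe was past the threshold, downwards, with log2(value + 50) and without the dimmest 25%. It was also past it with the trended, robust variance. Without the dimmest 50%, HMGA1 was past it upwards and the dimmer HMGN3 probe downwards. Over all probes, calls higher and lower numbered 80 and 225 with log2(value + 50), 33 and 151 without the dimmest 25%, 432 and 567 without the dimmest 50% and 188 and 336 with the robust variance, and 0 and 0 to 1 without 1 array. Fewer probes were tested under the filters, and other causes were not tested. CCN5 passed without the dimmest 50% (-0.34). Without 1 array the brightest HMGA2 probe ranged from -0.21 to 0.022 (without CCN5 replicate 2) and HMGN5 from -0.13 to 0.0072 (without CCN5 replicate 3); the cause was not tested. The mean of a gene's probes moved HMGB3 to 0.07 and HMGN3 to -0.41. List medians near 0 changed sign with the scaling or with 1 array. The median of all probes was 0.08 under median centring and 0.03 as deposited. Replicate numbers share no stated batch, and same-number deviations correlated at -0.14, 0.12 and 0.02. With the replicate block 0 probes were called in either direction.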
